A study of Mus musculus with 24 samples.

Results

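Liver ductal cells (DCs) that formed organoids above a layer of mesenchymal cells were compared with DCs that formed organoids alone in expansion medium (EM). The members were chosen by their labels as the co-cultured and the EM organoids of the transwell experiment, and they are 4 samples, 2 of each kind, of 12 transwell samples and 24 in the whole series. The DCs were sorted as EpCAM+ cells without CD45, CD11b or CD31 from wild type C57BL/6 mice of 8 to 12 weeks, and both cultures were collected at day 15. EM organoids were DCs grown without other cells in a basal medium with gastrin, EGF, RSPO1 conditioned medium, FGF10, nicotinamide and HGF, with WNT conditioned medium, Noggin and a ROCK inhibitor at the start. Per the methods, the DCs of both cultures sat in Matrigel on a transwell insert that cells cannot cross. Co-cultured organoids were DCs over SCA1+Msc cells in mesenchymal medium (MM). MM is a basal medium with WNT3A conditioned medium but without the growth factors of EM. One passage of the study also names serum in MM, which its methods do not, so serum may differ between both cultures too.

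The SCA1+Msc cells were mesenchymal cells sorted by SCA1, with blood (CD45, CD11b) and endothelial (CD31) cells removed and no gate on PDGFRα, from other littermates, and had been grown in MM before the DCs were added. Per the methods, the DCs came from 2 littermates, and no source ties a replicate number to an animal, so p-values here measure the spread between these samples, which may be technical. No sample of DCs grown alone in MM was analysed here. The loss of the EM factors, the change to MM and the signals of the stroma therefore differ together between both groups, and their parts in any difference cannot be told apart. In bulk samples fewer cells of a type and less RNA per cell cannot be told apart either.

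DCs, also called cholangiocytes, line the bile ducts and are quiescent in the healthy liver. After injury, or in Matrigel with growth factors, they enter the cell cycle and can form hollow epithelial spheres that can be passaged as organoids. R-spondins raise Wnt signalling through the LGR receptors, EGF, FGF and HGF signal through receptor tyrosine kinases and the MAPK cascade, and mesenchyme around the duct is a known source of such ligands.

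Each sample was sequenced after Smart-seq2, a protocol that amplifies full-length cDNA from few cells. The library totals behind the deposited RPKM values were 20.9 and 18.7 M reads for the EM organoids and 25.2 and 21.3 M for the co-cultured organoids, and all 12 transwell samples ran from 17.5 to 26.1 M. Values of both replicates are given below, in order, as TPM, which is scaled for gene length and for the sum of a sample. EM stands for the EM organoids and co-culture for the co-cultured organoids. A gene was called at a Benjamini-Hochberg adjusted p under 0.05 over all genes tested, from limma fitted to all 12 transwell samples with n = 2 in each group. A difference is the log2 fold change of co-cultured over EM organoids on log2(TPM + 1), ± its standard error (SE), from that fit. This scale understates the change of genes at low TPM. Across genes, samples of the same culture correlated at a Spearman rho of 0.962 in both cultures, EM and co-cultured organoids at 0.915 to 0.920, and organoids and DCs of day 0 at 0.799 to 0.816. These are descriptions across genes, which are not independent replicates.

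Of 18136 genes tested, 2348 were called, which is 12.9% of them. 1040 genes rose in the co-cultured organoids (5.73%) and 1308 fell (7.21%), and over all genes tested the log2 fold change had a median of -0.13. The counts of each gene list below are to be read against these shares. The split depends on the scale, because 44.3% of the calls are rises with TPM. The share is 62.8% once both groups are scaled to a median change of 0, and 54.1% after quantile normalization. That scaling moved the median of all genes from -0.125 to 0. Expressed genes could move further, as the median of the cholesterol synthesis list did, from 1.05 to 1.25. A total of 9764 genes (53.8%) showed no overlap between the 2 samples of each group, so absence of overlap alone says little about a gene. Leaving out 1 organoid sample left 1321 calls without EM organoids 1, 1231 without EM organoids 2, 1267 without co-cultured organoids 1 and 1462 without co-cultured organoids 2, where a group of 1 sample is taken to vary like the other groups. Genes named below as called were called in each of these 4 fits unless the range of their adjusted p over them is given.

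**Figure D1:**
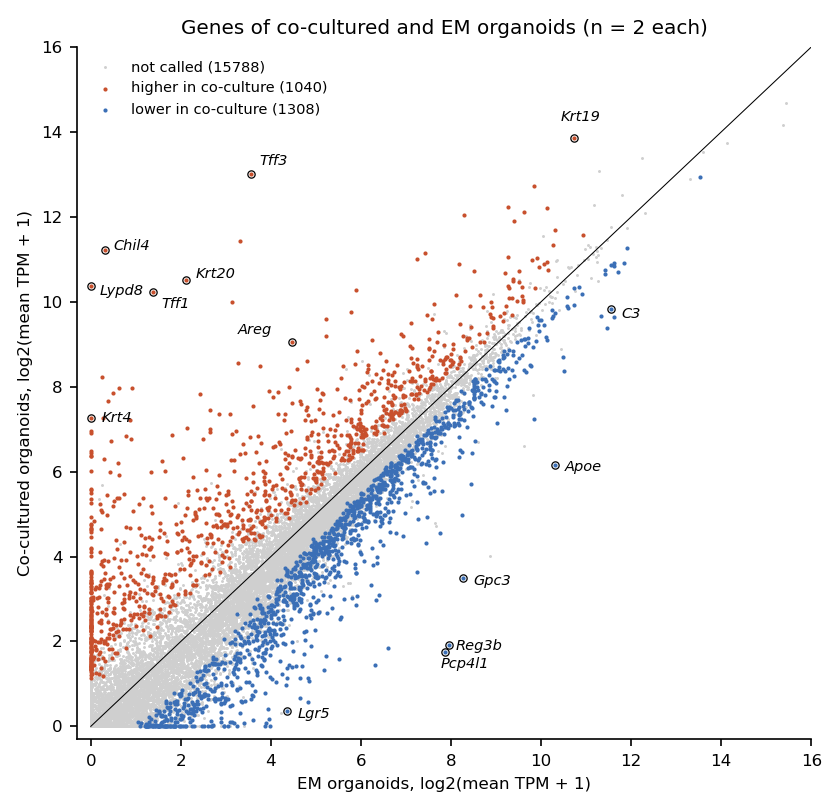
Log2(mean TPM + 1) of each gene tested in the EM organoids (x axis) and the co-cultured organoids (y axis), n = 2 samples each, with 1040 genes that rose, 1308 that fell and 15788 not called in separate colours. The named genes stand far off the diagonal line of equal level, with Chil4, Lypd8 and Tff3 above it and Pcp4l1, Reg3b and Gpc3 below it.

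Both cultures carried the marks of ductal epithelium, and stromal markers were low in the organoids. The 19 genes of the ductal identity list summed to 59635 and 58079 TPM in the EM organoids and to 63792 and 60171 TPM in the co-cultured organoids. Spp1 alone held 42971 and 41967 TPM of the EM sums and 18990 and 17639 TPM of the co-culture sums. Members moved in opposite directions, as given below, so like sums do not show a like profile. Epcam, the epithelial adhesion molecule by which the DCs were sorted, was at 2156 and 2081 TPM in the EM organoids and at 1986 and 2136 TPM in the co-cultured organoids, and the groups overlapped. The 20 mesenchymal markers summed to 19.8 and 5.65 TPM in the EM organoids, to 11.2 and 38.7 TPM in the co-cultured organoids and to 47842 and 49078 TPM in the SCA1+Msc cells of the co-culture. None of the 20 was called. The highest value in the co-cultured organoids was that of Acta2, smooth muscle actin, at 0.0628 and 15.3 TPM.

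The co-cultured organoids 2 held more of these transcripts than the co-cultured organoids 1. Dcn, which encodes the matrix proteoglycan decorin, was at 0.215 and 3.31 TPM in the co-cultured organoids, which is 0.00107% and 0.0164% of its mean in the co-cultured SCA1+Msc cells. Other markers had higher shares in the co-cultured organoids 2, with 0.142% for Col1a1, a collagen chain, 0.193% for Pdgfra, a receptor of the stroma, and 0.465% for Acta2. Among the markers with reads, Dcn thus had the lowest share of the SCA1+Msc level in both co-cultured samples. Pdgfra had no read in the co-cultured organoids 1. Acta2 had the highest only in the co-cultured organoids 2, from 252.7 reads. In the co-cultured organoids 1 it was at 0.00191%, from 1.2 reads, and the marker Vim had the highest share, at 0.0618%. The Y-linked genes Ddx3y and Eif2s3y had means of 47.8 and 33.7 TPM in those SCA1+Msc cells and no read in any organoid sample. A floor of 3 reads allows 0.135% and 0.160% of the SCA1+Msc level of Ddx3y in the co-cultured organoids, and 0.239% and 0.284% of that of Eif2s3y, so the Acta2 share of the co-cultured organoids 2 lies above these floors. Floors cover counting error only.

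Markers of other cells moved in part. Of 12 macrophage and blood cell markers tested, Cd68, a lysosomal glycoprotein, and Ppbp, a platelet chemokine, were called as higher, with adjusted p of 0.114 to 0.238 and 0.0025 to 0.0706 without 1 organoid sample each. The sum of these markers was 27.1 and 29.8 TPM in the EM organoids and 134 and 104 TPM in the co-cultured organoids, whereas C1qa, C1qb, Adgre1 and the globins were at 0 TPM in all 4. The 12 endothelial markers summed to 2.93 to 10.0 TPM in all 4 samples, most of it Flt4, and none was called. The part of these markers in the results was not tested.

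**Figure D2:**
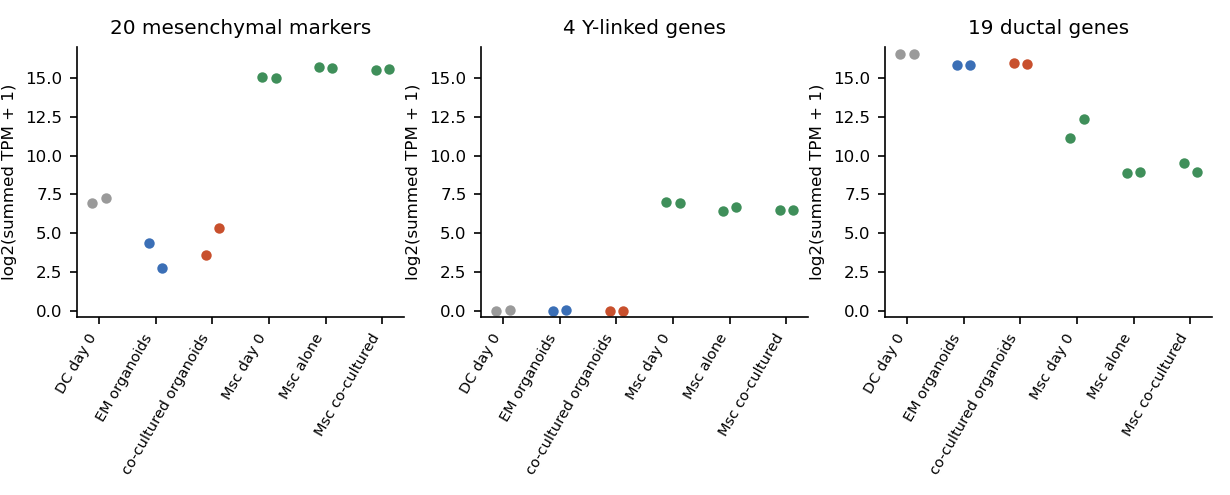
Log2(summed TPM + 1) of 20 mesenchymal markers, 4 Y-linked genes and 19 ductal genes (left to right), one point for each of the 12 transwell samples, in 6 groups of 2. The mesenchymal sums of the organoids, 5.65 to 38.7 TPM, lie far below the 47842 and 49078 TPM of the co-cultured SCA1+Msc cells. The ductal sums of both cultures are alike, although members of that list moved in opposite directions.

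Among the 15 largest rises were genes known from mucus-producing and gut epithelium, beside genes of other kinds. Chil4, a chitinase-like secreted protein of mouse gastric and airway epithelium, was at 0.448 and 0.0556 TPM in the EM organoids, which rests on 9 reads and 1 read, and at 3102 and 1657 TPM in the co-cultured organoids. Its log2 fold change was 10.84 ± 0.41, adjusted p = 1.01e-06. Tff3, the trefoil peptide of goblet cells, was at 15.6 and 6.03 TPM in the EM organoids and 8380.3 and 8175 TPM in the co-cultured organoids (9.58 ± 0.35, adjusted p = 1.01e-06). Both genes were at 15.6 TPM or less in EM and at 1657 TPM or more in co-culture. The choice of the largest changes required no overlap between groups. Chil4 lies at chr3:106201490-106219507 and Tff3 at chr17:31125306-31129646 on GRCm38. Reads of Chil4 and its near-identical neighbour Chil3 can be confused, and Chil3 was at 0 and 0 TPM in the EM organoids and at 11.4 and 2.36 TPM in the co-cultured organoids without a call.

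Several of the rising genes had no read in either EM sample. Lypd8, a secreted protein of the colon that binds flagellated bacteria, was at 0 TPM in both EM samples and at 1481 and 1158 TPM in the co-cultured organoids, at least 3803-fold higher than the mean floor of 3 reads per EM library. Krt4, a keratin of stratified epithelium, was at least 732-fold higher by the same measure, with 201 and 104 TPM in the co-cultured organoids, and Gpa33, an antigen of intestinal epithelium, at least 543-fold higher, with 89.1 and 87.2 TPM. Mcpt2, known as a protease of mucosal mast cells, was at least 292-fold higher (118 and 127 TPM), and Prl2c2, a hormone of the prolactin family, at least 291-fold higher (106 and 131 TPM). Prl2c2 has near-identical copies, so its reads may be split among them. Adjusted p-values of these 5 genes were 2.55e-07, 4.57e-06, 1.24e-06, 1.01e-06 and 1.08e-06.

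Further rises of this size came from low EM levels. Tff1, a gastric trefoil peptide, was at 0.293 and 2.95 TPM in the EM organoids and at 1650.2 and 767 TPM in the co-cultured organoids (8.96 ± 0.52, adjusted p = 9.59e-06). Krt20, a keratin of differentiated gut epithelium, was at 6.04 and 0.569 TPM in EM and 1596 and 1324 TPM in co-culture (8.77 ± 0.71, adjusted p = 6.70e-05). Clca1, a protein secreted by goblet cells, was at 0 and 0.373 TPM in EM and 469.6 and 127 TPM in co-culture (7.71 ± 0.52, adjusted p = 2.18e-05). In each of these 3 genes the lower co-cultured sample lay far above the higher EM sample, though their choice already required no overlap. Phgr1, a small protein of intestinal epithelium, had a log2 fold change of 8.21 ± 0.72, Anxa10, an annexin of gastric epithelium, of 7.42 ± 0.43, and Lgals4, a galectin of gut epithelium, of 6.93 ± 0.44. Ifi27l2a, an interferon-induced gene with a close copy, reached 7.33 ± 0.25 and AA467197 7.09 ± 0.50.

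Among the 15 largest falls were Gpc3, Apoe and Lgr5. Gpc3, a heparan sulphate proteoglycan of fetal liver at chrX:52272426-52613950, was at 323 and 293 TPM in the EM organoids and 6.07 and 14.3 TPM in the co-cultured organoids (-4.89 ± 0.35, adjusted p = 3.18e-05). Apoe, an apolipoprotein, was at 1382 and 1135 TPM in EM and 71.7 and 69.4 TPM in co-culture (-4.13 ± 0.12, adjusted p = 3.04e-07). Lgr5, the R-spondin receptor that marks cycling stem cells of several epithelia, was at 12.8 and 26.4 TPM in EM and 0.555 and 0 TPM in co-culture (-3.96 ± 0.53, adjusted p = 0.00122). All 3 fell without overlap, as the choice of the largest changes required. The Gpc3 level in the co-cultured organoids was close to the 9.50 and 7.78 TPM of DCs at day 0.

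Reg3b, an antimicrobial lectin, was at 112 and 355 TPM in the EM organoids and 2.84 and 1.86 TPM in the co-cultured organoids (-5.92 ± 0.74, adjusted p = 0.000875), with a wide gap between both EM samples. Its neighbour Reg3g was at 48.9 and 34.1 TPM in EM and 3.97 and 13.7 TPM in co-culture (-2.29 ± 0.61, adjusted p = 0.0374), and its adjusted p was 0.0276 to 0.254 without 1 organoid sample each. Pcp4l1 had the largest fall of all named genes, from 256 and 239 TPM to 1.56 and 4.04 TPM (-6.11 ± 0.69, adjusted p = 0.000491). Bambi, a pseudoreceptor that dampens TGF-beta and BMP signals, fell by 3.86 ± 0.21, and Tnfrsf19, a Wnt-responsive receptor of the TNF family, by 4.05 ± 0.51. The same held for Tmem45a, for Tmeff2, for the plasma protein Itih4, for the carboxylesterase Ces1d, for Efcab10, for Cttnbp2, for Acbd7 and for Qpct, a glutaminyl cyclase, with log2 fold changes from -4.89 to -3.61. All 30 genes of largest change kept their call without each organoid sample, whereas 8 of them were not called when the 4 organoid samples were fitted without the other 8 (adjusted p = 0.0511 to 0.0691).

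**Figure D3:**
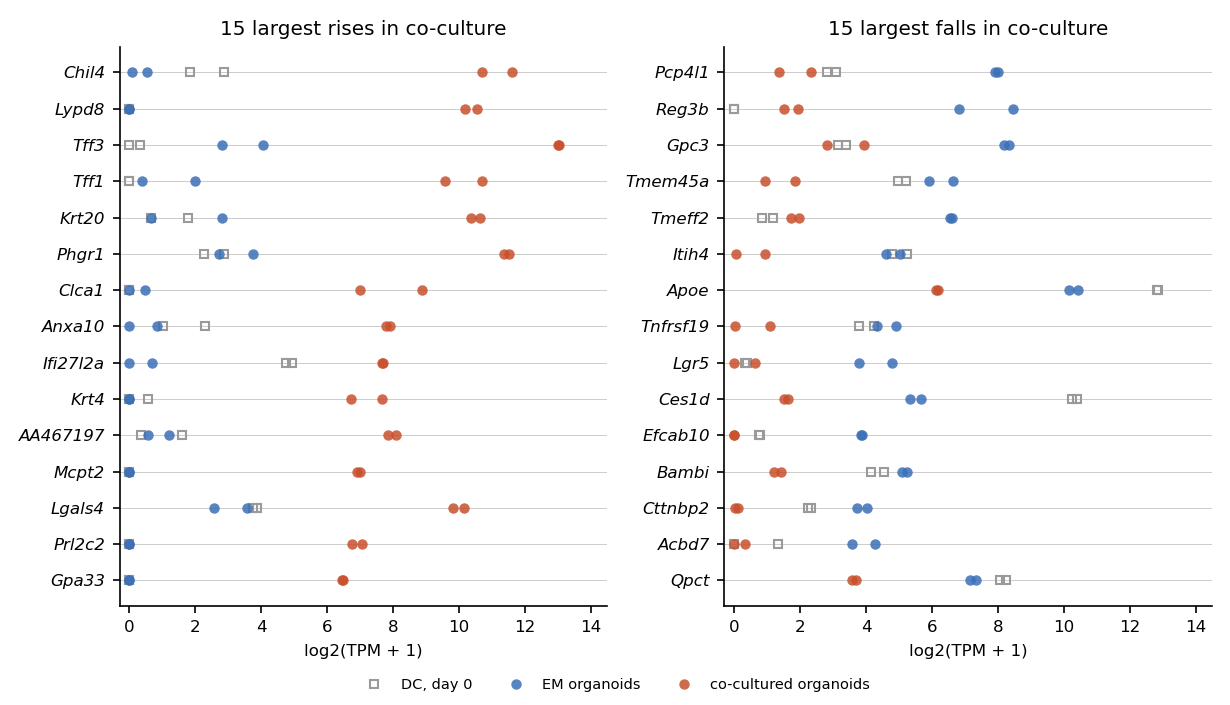
Log2(TPM + 1) in each EM organoid, co-cultured organoid and day 0 DC sample (2 each) of the 15 largest rises and the 15 largest falls among called genes. No gene overlaps between both cultures, as the choice of these genes required, and Lypd8 is at 0 in both EM samples.

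Further trefoil factors and mucins rose in part. Of 17 tested genes of a list of 22 trefoil factors, mucins and chitinase-like proteins, 8 rose and 2 fell, with a median log2 fold change of 1.45 against -0.13 over all genes. Tff2 was at 156 and 183 TPM in the EM organoids and at 2352 and 2212 TPM in the co-cultured organoids (3.74 ± 0.64, adjusted p = 0.00468). Muc4, a membrane-bound mucin, was at 0.0835 and 0.493 TPM in EM and 47.8 and 36.8 TPM in co-culture (5.08 ± 0.29, adjusted p = 9.59e-06). Muc13, another membrane mucin, had no read in the EM organoids and was at 7.36 and 8.56 TPM in the co-cultured organoids, at least 54.3-fold higher (adjusted p = 7.09e-05). The gel-forming mucins stayed low, with Muc5b at up to 0.670 TPM and Muc5ac at up to 0.520 TPM in all 4 samples, and Spdef, a goblet cell transcription factor, had no read in any of them. Muc1, which was abundant in both cultures, was at 2557 and 2271 TPM in EM and 2521 and 2160.1 TPM in co-culture, and these overlapped. Agr2 and Muc20 were called as higher but had adjusted p of 0.0366 to 0.156 and 0.0935 to 0.199 without 1 organoid sample each.

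Keratins and cornified envelope genes rose together. Of 12 tested genes of a list of 16, 9 rose and none fell. The median log2 fold change was 2.46, or 3.11 with genes at 0 in a whole group set at their bound. Krt6a and Krt16, keratins of activated epidermis, had no read in the EM organoids and were at 36.5 and 9.05 TPM and at 3.29 and 5.93 TPM in the co-cultured organoids (adjusted p = 0.000618 and 0.00156). Krt6a differed widely between both co-cultured samples. Ivl, the envelope protein involucrin, was at 26.5 and 31.9 TPM in EM and 117 and 125 TPM in co-culture (2.02 ± 0.30, adjusted p = 0.00227), and Sprr1a, a small proline-rich envelope protein, at 692 and 662 TPM in EM and 3252 and 4346 TPM in co-culture (2.47 ± 0.42, adjusted p = 0.0043). Sprr1a was highest in the DCs of day 0, at 12941 and 15652 TPM. Krt5 and Krt14, the basal keratins of stratified epithelium, were at most at 0.969 and 0.0755 TPM, and Trp63, their regulator, had no read. Krt13 and Krt15 were called as higher, with adjusted p of 7.81e-05 to 0.0506 and 0.0415 to 0.201 without 1 organoid sample each.

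Among the ductal keratins, Krt19 at chr11:100140810-100148665 was at 1791 and 1580.3 TPM in the EM organoids and at 15435 and 14387 TPM in the co-cultured organoids (3.15 ± 0.69, adjusted p = 0.0158). Krt7 was at 306 and 269 TPM in EM and 1925 and 1853 TPM in co-culture (2.71 ± 0.53, adjusted p = 0.00932). Neither showed overlap, and replicates differed by little, but the SE of both comes from all 12 samples. Their adjusted p was 0.0784 to 0.106 and 0.0543 to 0.0753 without 1 organoid sample each, and 0.00432 and 0.00432 in a fit of the 6 ductal samples. Krt8 was at 2549.9 and 2405 TPM in EM and 9009.6 and 8323 TPM in co-culture (1.81 ± 0.56, adjusted p = 0.0664) and Krt18 at 4903 and 4713 TPM in EM and 10814 and 10522 TPM in co-culture (1.15 ± 0.70, adjusted p = 0.361). These were not called, and the fit of the 6 ductal samples gave them adjusted p of 0.01 and 0.0289.

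Members of the ductal identity list changed in both directions. The list of 19 genes held 2 rises, Krt19 and Krt7, and 4 falls, with a median of -0.04. These are 10.5% and 21.1%, against 5.73% and 7.21% of all genes. Sox9, which marks ductal and progenitor cells, was at 349.8 and 363 TPM in the EM organoids and 161 and 154 TPM in the co-cultured organoids (-1.17 ± 0.19, adjusted p = 0.00396). Onecut1, a factor of duct development, was at 32.5 and 31.1 TPM in EM and 5.33 and 5.32 TPM in co-culture (-2.37 ± 0.26, adjusted p = 0.000455), and Bicc1, an RNA-binding protein whose loss causes duct cysts, at 298 and 305 TPM in EM and 86.9 and 88.4 TPM in co-culture (-1.77 ± 0.14, adjusted p = 7.29e-05). All 3 fell with no overlap. Foxj1, the master regulator of motile cilia, was at 218 and 185 TPM in EM and 76.4 and 79.4 TPM in co-culture (-1.36 ± 0.24, adjusted p = 0.00551), with an adjusted p of 0.0333 to 0.0596 without 1 organoid sample. Hnf4a was at 123 and 138 TPM in EM and 152 and 142 TPM in co-culture and Cdh1, which encodes E-cadherin, at 674 and 671 TPM in EM and 812 and 779.99 TPM in co-culture. Spp1, which encodes osteopontin, was among the most abundant transcripts of both cultures, at 42971 and 41967 TPM in EM and 18990.4 and 17639 TPM in co-culture (-1.21 ± 0.37, adjusted p = 0.0612), and was not called.

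Genes known from activated and organoid-forming epithelium changed in both directions. Of 14 tested genes of this list, 7 rose and 2 fell, with a median of 0.66. Ly6a, which encodes SCA1 itself, was at 612 and 621 TPM in the EM organoids and at 5102 and 4465 TPM in the co-cultured organoids (2.95 ± 0.13, adjusted p = 2.30e-06). SCA1+Msc cells of the same co-culture held 1206 and 957 TPM of Ly6a. Il33, an alarmin, was at 4.91 and 6.94 TPM in EM and 55.1 and 44.3 TPM in co-culture (2.88 ± 0.27, adjusted p = 0.000162) and Anxa1, an annexin induced by injury, at 341 and 347 TPM in EM and 956 and 952 TPM in co-culture (1.47 ± 0.24, adjusted p = 0.00391). Klf6, a transcription factor of early response, and Anxa3 also rose, by 1.91 ± 0.22 and 0.84 ± 0.084. Clu, the most abundant mRNA of all 4 organoid samples, was at 44116 and 44125 TPM in EM and 25761 and 27001 TPM in co-culture (adjusted p = 0.0697) and was not called. Ly6 genes are alike in sequence, so reads may be shared among them. Cd44, Ly6d and Sox4 were called in the full fit but in none of the fits without 1 organoid sample.

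The receptors of the factors in EM mostly fell or did not pass the test. Of 23 tested genes of a list of 25, 1 rose (4.35% against 5.73% of all genes) and 6 fell (26.1% against 7.21%). The median was -0.47. Fgfr2, the receptor of FGF10, was at 171 and 182 TPM in the EM organoids and 22.4 and 36.7 TPM in the co-cultured organoids (-2.58 ± 0.30, adjusted p = 0.000523). Fgfr1 was at 6.02 and 6.74 TPM in EM and 0.249 and 1.83 TPM in co-culture (-1.97 ± 0.32, adjusted p = 0.00338). Egfr, the receptor of EGF, was the one rise, at 31.5 and 35.9 TPM in EM and 86.1 and 75.0 TPM in co-culture (1.23 ± 0.20, adjusted p = 0.00386). Fgfr1 and Fgfr2 together with Lgr5 kept their calls, whereas Fgfr3, Erbb4 and Fzd2 had adjusted p of 0.0697 to 0.11, 0.082 to 0.156 and 0.00542 to 0.159 without 1 organoid sample each. Met, the receptor of HGF, was at 53.05 and 58.4 TPM in EM and 34.1 and 35.5 TPM in co-culture (-0.66 ± 0.25, adjusted p = 0.123), and Lgr4 at 17.1 and 23.1 TPM in EM and 22.1 and 27.4 TPM in co-culture (0.29 ± 0.31, adjusted p = 0.651). The gastrin receptor genes Cckbr and Cckar had no read in any of the 4 samples.

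Among the EGF family ligands, Areg and Ereg rose. Areg, which encodes amphiregulin, was at 30.2 and 12.0 TPM in the EM organoids and 556 and 502 TPM in the co-cultured organoids (4.72 ± 0.45, adjusted p = 0.000185). Ereg, which encodes epiregulin, was at 1.12 and 1.29 TPM in EM and 15.1 and 16.3 TPM in co-culture (2.92 ± 0.19, adjusted p = 2.09e-05). Both ligands of EGFR were thus far above both EM samples and above the day 0 levels, 6.03 and 2.10 TPM of Areg and 0.788 and 0.658 TPM of Ereg. Tgfa and Hbegf were not called, with log2 fold changes of 0.47 ± 0.41 and 0.23 ± 0.19. Nrg4, the third called gene of 7 tested, was lower, with an adjusted p of 0.00978 to 0.0953 without 1 organoid sample each.

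Targets of the MAPK cascade split. Of 18 genes, 6 rose (33.3% against 5.73% of all genes) and 2 fell (11.1% against 7.21%), with a median of 0.25. Fos was at 73.2 and 65.6 TPM in the EM organoids and 357 and 289 TPM in the co-cultured organoids (2.20 ± 0.17, adjusted p = 4.27e-05) and Fosl1, another AP-1 subunit, at 5.26 and 7.15 TPM in EM and 53.2 and 35.4 TPM in co-culture (2.64 ± 0.36, adjusted p = 0.0014). Ccnd1, which encodes cyclin D1, was at 216 and 194 TPM in EM and 547 and 507 TPM in co-culture (1.36 ± 0.13, adjusted p = 0.000189). These rose while Egr1, another immediate early gene, fell, at 176 and 172 TPM in EM and 79.1 and 63.7 TPM in co-culture (-1.28 ± 0.12, adjusted p = 0.000177). Phlda1 and Ier3 rose by 1.43 ± 0.14 and 0.96 ± 0.088. The feedback inhibitors Dusp6, Spry1, Spry2 and Spry4 were not called, with log2 fold changes from -0.54 to -0.23. Dusp5 was called as higher and Spred1 as lower, with adjusted p of 0.138 to 0.212 and 0.0358 to 0.204 without 1 organoid sample each.

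Of 20 tested Wnt targets of a list of 22, 1 rose (5.0% against 5.73% of all genes) and 3 fell (15.0% against 7.21%), with a median of -0.31. The falls were Lgr5, Tnfrsf19 and Znrf3, a ligase that removes Wnt receptors, which was at 39.7 and 35.6 TPM in the EM organoids and 12.8 and 16.4 TPM in the co-cultured organoids (-1.32 ± 0.22, adjusted p = 0.00439). Axin2, the general feedback target, was low in both cultures, at 4.46 and 6.26 TPM in EM and 4.67 and 2.26 TPM in co-culture (-0.55 ± 0.47, adjusted p = 0.555), and the groups overlapped. The one rise was Cd44. Of the Wnt ligand genes, Wnt7a was at 58.6 and 40.4 TPM in EM and 157 and 140.3 TPM in co-culture (1.59 ± 0.30, adjusted p = 0.00753) and Wnt4 at 0.568 and 1.46 TPM in EM and 3.44 and 4.81 TPM in co-culture (1.37 ± 0.32, adjusted p = 0.0201), both without overlap, with adjusted p of 0.0224 to 0.074 and 0.0288 to 0.132 without 1 organoid sample each. Wnt7b was the most abundant of them, at 301 and 284 TPM in EM and 458 and 363 TPM in co-culture, and was not called.

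Of 14 Notch genes tested, 1 was called as lower, which is 7.14% against 7.21% of all genes, and none as higher. It was the receptor Notch1, at 13.8 and 9.99 TPM in the EM organoids and 2.48 and 4.996 TPM in the co-cultured organoids (-1.48 ± 0.35, adjusted p = 0.023), with an adjusted p of 0.028 to 0.172 without 1 organoid sample each. The target Hes1 was at 230.2 and 243 TPM in EM and 204 and 206 TPM in co-culture, with a log2 fold change of -0.21 and a 95% interval of -0.47 to 0.059, and Hes5 and Hey2 had no read in these samples. The ligand Jag1 was at 62.0 and 66.5 TPM in EM and 45.3 and 46.6 TPM in co-culture (-0.47 ± 0.28, adjusted p = 0.349).

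Targets of YAP and TAZ, which respond to cell shape and tension, gave 3 rises and 1 fall among 18 genes, with a median of 0.32. These are 16.7% and 5.56%, against 5.73% and 7.21% of all genes. F3, which encodes tissue factor, was at 62.3 and 56.8 TPM in the EM organoids and 521 and 391 TPM in the co-cultured organoids (2.90 ± 0.34, adjusted p = 0.000589), and Myof, a membrane repair protein, at 45.4 and 43.6 TPM in EM and 96.9 and 89.5 TPM in co-culture (1.05 ± 0.15, adjusted p = 0.00174). Nuak2, a kinase, fell, at 285 and 304 TPM in EM and 90.0 and 89.8 TPM in co-culture (-1.70 ± 0.15, adjusted p = 0.000118). The commonly used targets Cyr61, Ctgf and Ankrd1 were not called, with log2 fold changes of 0.18 ± 0.15, 0.83 ± 0.24 and 0.94 ± 0.45. Axl was called as higher, with an adjusted p of 0.00366 to 0.135 without 1 organoid sample each.

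TGF-beta genes rose in part. Of 15 genes 6 rose and 1 fell, with a median of 0.87, and the rises numbered 3 without EM organoids 2, 3 without co-cultured organoids 1 and 3 without co-cultured organoids 2. Tgfb3, a ligand, was at 193 and 234 TPM in the EM organoids and 26.6 and 18.7 TPM in the co-cultured organoids (-3.20 ± 0.31, adjusted p = 0.000203), while Tgfb2 was at 7.12 and 6.06 TPM in EM and 14.7 and 15.9 TPM in co-culture (1.10 ± 0.17, adjusted p = 0.00315). The ligands thus moved in opposite directions. The response gene Pmepa1, the latent TGF-beta binding protein gene Ltbp1 and the receptor gene Tgfbr2 were called as higher, with adjusted p of 0.0273 to 0.0701, 0.0177 to 0.0628 and 0.00426 to 0.112 without 1 organoid sample each. Smad7, another response gene, was at 9.58 and 10.9 TPM in EM and 11.9 and 9.39 TPM in co-culture, which overlapped, and was not called.

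Of 17 BMP genes, 2 rose (11.8% against 5.73% of all genes) and 2 fell (11.8% against 7.21%), with a median of -0.18. Bmp2, a ligand, was at 1.26 and 1.28 TPM in the EM organoids and 17.9 and 17.8 TPM in the co-cultured organoids (3.05 ± 0.25, adjusted p = 8.36e-05). Id3, a target of BMP receptors, was at 49.6 and 56.7 TPM in EM and 171 and 241 TPM in co-culture (1.92 ± 0.14, adjusted p = 3.70e-05), whereas the related Id1 and Id2 were not called (0.33 ± 0.16 and -0.56 ± 0.20). The falls were Bambi and Bmp4, and the adjusted p of Bmp4 was 0.0494 to 0.113 without 1 organoid sample each.

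Cell cycle genes were called about as often as all genes. Of 31 genes, 2 rose (6.45% against 5.73% of all genes) and 2 fell (6.45% against 7.21%), with a median of -0.10. Mki67, the proliferation marker Ki67, was at 13.1 and 12.6 TPM in the EM organoids, 8.70 and 12.1 TPM in the co-cultured organoids and 2.17 and 1.64 TPM in the DCs of day 0, with a log2 fold change of -0.30 and a 95% interval of -1.01 to 0.41 between the cultures. Cdk1, the mitotic kinase, was at 70.9 and 64.6 TPM in EM, 70.0 and 70.9 TPM in co-culture and 2.60 and 2.13 TPM at day 0, with an interval of -0.67 to 0.79, and Top2a at 35.7 and 31.0 TPM in EM, 24.9 and 33.5 TPM in co-culture and 5.87 and 1.67 TPM at day 0. Both cultures stood well above the sorted DCs in these genes, and the 4 organoid samples overlapped in Cdk1 and Top2a. A p that misses the threshold does not show that the cultures divided at the same rate.

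The D cyclins differed. Ccnd1 rose, as given above, and Ccnd2 fell, at 232 and 217 TPM in the EM organoids and 74.3 and 74.2 TPM in the co-cultured organoids (-1.58 ± 0.15, adjusted p = 0.000151). Ccnd3 was lower and Rrm2, a subunit of ribonucleotide reductase, higher, with adjusted p of 0.0241 to 0.0947 and 0.0679 to 0.173 without 1 organoid sample each. Of 16 CDK inhibitors and p53 targets, Cdkn1a, the inhibitor p21, rose, at 217 and 201 TPM in EM and 593 and 654 TPM in co-culture (1.57 ± 0.12, adjusted p = 3.68e-05). The list held 1 rise (6.25% against 5.73% of all genes) and 2 falls (12.5% against 7.21%). Cdkn1c and Sesn2 were called as lower, with adjusted p of 0.027 to 0.171 and 0.00904 to 0.18 without 1 organoid sample each.

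Most interferon-stimulated genes rose. Of 28 genes, 17 rose and 2 fell, with a median log2 fold change of 1.85, or 1.92 with genes at 0 set at their bound. The rises numbered 10 without co-cultured organoids 1, and both falls, Irf1 and Ifitm3, were no longer called in most of these fits (adjusted p = 0.0322 to 0.223 and 0.0612 to 0.123) or once both groups were scaled to a median change of 0. Isg15, a ubiquitin-like protein, was at 3.34 and 7.25 TPM in the EM organoids, 196 and 150.02 TPM in the co-cultured organoids and 85.2 and 63.2 TPM in the DCs of day 0 (4.85 ± 0.63, adjusted p = 0.00106). Irf7, the transcription factor that amplifies the response, was at 4.27 and 12.3 TPM in EM, 134 and 111 TPM in co-culture and 26.8 and 23.8 TPM at day 0 (3.88 ± 0.49, adjusted p = 0.000904). In 14 of the 17 rising genes, the mean of the day 0 DCs lay between both cultures.

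Further members rose from a few TPM. Oas1a, an oligoadenylate synthetase that senses double-stranded RNA, was at 3.35 and 3.49 TPM in the EM organoids and 124 and 134 TPM in the co-cultured organoids (4.88 ± 0.41, adjusted p = 9.15e-05). Its relatives Oasl1 and Oasl2 were at 0.376 and 3.60 TPM in EM and 74.0 and 75.6 TPM in co-culture (4.91 ± 0.56, adjusted p = 0.000485), and at 2.62 and 3.66 TPM in EM and 84.1 and 72.6 TPM in co-culture (4.27 ± 0.46, adjusted p = 0.000361). These genes are alike in sequence and reads may be split among them. Usp18, which removes Isg15 from proteins, was at 1.51 and 1.52 TPM in EM and 82.2 and 42.4 TPM in co-culture (4.58 ± 0.53, adjusted p = 0.000527). Xaf1, Trim30a and Bst2, which encodes tetherin, rose by 2.90 ± 0.39, 2.49 ± 0.36 and 1.80 ± 0.23, and Ifi27 by 1.15 ± 0.10. Irf9 and Rtp4 were called too, with adjusted p of 0.0353 to 0.12 and 0.0341 to 0.0572 without 1 organoid sample each. The guanylate-binding genes Gbp2 and Gbp3, the helicase gene Ddx58 and the chemokine gene Cxcl10 were not called, and Cxcl10 stayed at up to 2.22 TPM in all 4 samples.

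Promoters of the rising members were read for the interferon-stimulated response element (ISRE), a DNA element known from interferon-induced genes. The ISRE was searched as GAAA, any 2 bases and GAAA on both strands, with overlapping matches counted, in the 250 bases before each RefSeq start site of GRCm38.p6. A promoter was found for 20 of the 28 genes, and 10 of these 20 genes held a match. This compares with 3.46% of all 27025 genes with a promoter and 3.22% of the 11757 of them tested here. The genes were listed as interferon-stimulated, so this difference describes the list and not these organoids. Of 11 rising members with a promoter, 5 held a match. The other members with a match, Stat2, Ifit3, Rsad2, Gbp2 and Gbp3, were not called as higher. The 5 rising members with a match are shown with the matched bases in capitals.
Isg15, chr4:156200819-156201068, minus strand: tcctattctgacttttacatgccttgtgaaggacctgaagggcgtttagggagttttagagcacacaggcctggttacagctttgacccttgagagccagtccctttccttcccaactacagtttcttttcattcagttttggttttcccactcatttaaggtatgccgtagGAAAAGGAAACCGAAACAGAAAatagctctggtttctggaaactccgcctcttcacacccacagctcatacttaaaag
Ifit1, chr19:34640639-34640888, plus strand: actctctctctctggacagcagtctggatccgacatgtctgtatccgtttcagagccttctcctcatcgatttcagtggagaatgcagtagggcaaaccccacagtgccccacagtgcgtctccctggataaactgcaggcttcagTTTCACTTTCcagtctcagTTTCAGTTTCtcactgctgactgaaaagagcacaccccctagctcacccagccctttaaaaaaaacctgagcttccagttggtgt
Oas1a, chr5:120907526-120907775, minus strand: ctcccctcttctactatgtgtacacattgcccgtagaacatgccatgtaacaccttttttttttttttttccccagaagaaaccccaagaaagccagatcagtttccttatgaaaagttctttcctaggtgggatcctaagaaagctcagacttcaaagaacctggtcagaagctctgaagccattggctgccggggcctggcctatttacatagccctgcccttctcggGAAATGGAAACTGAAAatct
Bst2, chr8:71537473-71537722, minus strand: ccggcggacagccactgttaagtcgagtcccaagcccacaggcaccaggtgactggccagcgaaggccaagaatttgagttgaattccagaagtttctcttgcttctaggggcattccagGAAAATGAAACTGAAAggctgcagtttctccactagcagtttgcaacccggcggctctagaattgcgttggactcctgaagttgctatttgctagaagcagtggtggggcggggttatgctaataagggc
Trim30a, chr7:104465194-104465443, minus strand: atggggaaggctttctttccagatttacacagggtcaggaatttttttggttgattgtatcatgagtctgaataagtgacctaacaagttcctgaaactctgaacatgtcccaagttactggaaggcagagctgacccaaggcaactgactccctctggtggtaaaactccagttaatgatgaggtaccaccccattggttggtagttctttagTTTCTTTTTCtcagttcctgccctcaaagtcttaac

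Isg15 carries 3 overlapping matches that begin 66 to 78 bases before its start, and Oas1a carries 2 that begin 14 and 20 bases before it. Ifit1, an RNA-binding antiviral protein, carries 2, and it was at 1.06 and 8.67 TPM in the EM organoids and 25.5 and 28.1 TPM in the co-cultured organoids (2.64 ± 0.72, adjusted p = 0.0413), with an adjusted p of 0.0151 to 0.238 without 1 organoid sample each. Bst2 carries 2 and Trim30a carries 1. A match is a description of these letters, not of binding, and a promoter without one lacks only these letters in this window.

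Antigen presentation genes rose in part. Of 18 genes, 7 rose and none fell, with a median of 0.69, and the rises numbered 4 without co-cultured organoids 1 and 4 without co-cultured organoids 2. H2-D1, a class I heavy chain, was at 626 and 599 TPM in the EM organoids and 1370.2 and 1283 TPM in the co-cultured organoids (1.11 ± 0.083, adjusted p = 3.89e-05) and H2-K1 at 599.8 and 583 TPM in EM and 995 and 924 TPM in co-culture (0.70 ± 0.092, adjusted p = 0.00116). Cd74, the invariant chain of class II, was at 23.8 and 8.22 TPM in EM and 108 and 83.4 TPM in co-culture (2.67 ± 0.44, adjusted p = 0.00396), while the class II chains H2-Aa, H2-Ab1 and H2-Eb1 stayed at up to 2.74 TPM. All 3 rising genes were still below the DCs of day 0, where H2-D1 was at 3389 and 3023 TPM and Cd74 at 1782 and 1244 TPM. H2 genes share sequence, so reads may be split among them. B2m, the light chain of class I, was at 2381 and 2351 TPM in EM and 2172 and 2049 TPM in co-culture and was not called.

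Enzymes of cholesterol synthesis rose at most steps of the pathway. Of 21 genes, 13 rose and none fell, with a median of 1.05, and 9 to 11 rose without 1 organoid sample each. Hmgcs1, which makes HMG-CoA, was at 117 and 105 TPM in the EM organoids and 399.8 and 327 TPM in the co-cultured organoids (1.70 ± 0.13, adjusted p = 4.02e-05). Cyp51, lanosterol demethylase, was at 78.2 and 71.0 TPM in EM and 305 and 251 TPM in co-culture (1.88 ± 0.13, adjusted p = 2.66e-05). In 10 of the 13 rising genes the DCs of day 0 lay above both cultures, as with Hmgcs1 at 505 and 442 TPM.

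Enzymes of later steps rose too. Msmo1 and Hsd17b7, which act on sterol intermediates, rose by 1.51 ± 0.19 and 1.73 ± 0.20, and Fdft1, squalene synthase, by 1.17 ± 0.16. Sc5d and Mvd rose by 1.27 ± 0.14 and 1.05 ± 0.12. Insig1, the sterol sensor that holds back SREBP, was at 29.7 and 29.6 TPM in EM and 77.5 and 60.04 TPM in co-culture (1.18 ± 0.15, adjusted p = 0.000831). Dhcr7 was not called, nor was Srebf2, which encodes the SREBP of this pathway (0.45 ± 0.21, adjusted p = 0.213). The sterol regulatory element (SRE) of SREBP was searched as TCACNCCAC on both strands. It was found in a promoter of 1 of 14 genes of this list (7.14%), against 1.22% of all genes with a promoter. That promoter is Hmgcs1, shown with the match in capitals, which begins 137 bases before the start site.
Hmgcs1, chr13:119690101-119690350, plus strand: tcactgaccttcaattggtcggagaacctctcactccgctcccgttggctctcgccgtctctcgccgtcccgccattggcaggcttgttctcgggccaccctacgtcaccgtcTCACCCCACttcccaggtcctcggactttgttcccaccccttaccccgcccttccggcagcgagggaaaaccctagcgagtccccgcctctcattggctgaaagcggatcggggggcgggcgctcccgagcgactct

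**Figure D4:**
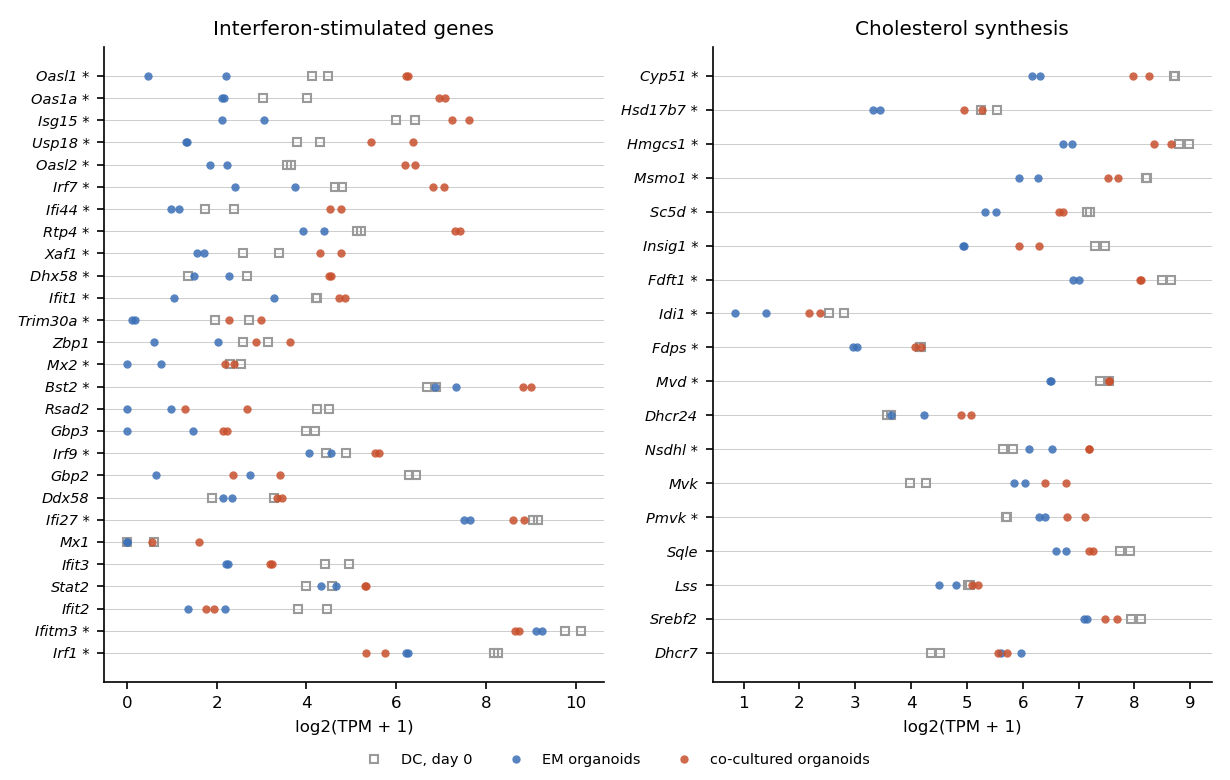
Log2(TPM + 1) of interferon-stimulated and cholesterol synthesis genes in EM organoids, co-cultured organoids and DCs of day 0, one point per sample (2 each), with called genes marked by an asterisk and a few members of both lists not drawn. Over the whole lists, the mean of day 0 lies between both cultures in 14 of 17 rising interferon-stimulated genes and above both in 10 of 13 rising cholesterol genes.

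Fatty acid genes changed in both directions. Of 15 genes, 4 rose (26.7% against 5.73% of all genes) and 1 fell (6.67% against 7.21%), with a median of 0.23. Dgat2, the last enzyme of triglyceride synthesis, was at 33.1 and 29.5 TPM in the EM organoids and 258 and 229 TPM in the co-cultured organoids (2.92 ± 0.30, adjusted p = 0.000299). Plin2, a lipid droplet coat protein, was at 159 and 141 TPM in EM and 394 and 406 TPM in co-culture (1.41 ± 0.19, adjusted p = 0.00113), and Scd1, a desaturase, at 27.1 and 20.3 TPM in EM and 56.8 and 56.3 TPM in co-culture (1.24 ± 0.18, adjusted p = 0.00207). These rose, whereas Acly, which supplies cytosolic acetyl-CoA, fell, at 335 and 397 TPM in EM and 221 and 201 TPM in co-culture (-0.79 ± 0.13, adjusted p = 0.00408). Fasn, fatty acid synthase, was at 44.2 and 43.8 TPM in EM and 48.6 and 46.1 TPM in co-culture (0.10 ± 0.22, adjusted p = 0.886).

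A part of the glycolytic enzymes rose in the co-cultured organoids. Of 26 glycolysis and hypoxia genes, 11 rose and none fell, with a median of 0.83, and the rises numbered 7 without co-cultured organoids 1 and 17 once both groups were scaled to a median change of 0. Ldha, lactate dehydrogenase, was at 693 and 759.6 TPM in the EM organoids and 1835 and 1527 TPM in the co-cultured organoids (1.20 ± 0.15, adjusted p = 0.000711). Slc16a3, a lactate exporter, was at 13.6 and 24.3 TPM in EM and 92.5 and 62.7 TPM in co-culture (2.004 ± 0.29, adjusted p = 0.00205), and Pkm, pyruvate kinase, at 457 and 499 TPM in EM and 985 and 907 TPM in co-culture (0.98 ± 0.15, adjusted p = 0.00264). All 3 were above the DCs of day 0, where Ldha was at 216 and 217 TPM. Aldoa, Tpi1 and Pfkp rose by 0.87 ± 0.15, 0.79 ± 0.11 and 1.05 ± 0.18. Of the hypoxia targets, Ndrg1 rose by 2.55 ± 0.20, while Car9, at 522 and 634 TPM in EM and 567 and 492 TPM in co-culture, and Vegfa, at 9.78 and 12.3 TPM in EM and 9.08 and 11.5 TPM in co-culture, overlapped between groups and were not called.

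Genes of oxidant and drug defence changed in both directions. Of 20 genes 7 rose and 4 fell, with a median of 0.67, and the rises numbered 3 without EM organoids 1, 3 without EM organoids 2 and 3 without co-cultured organoids 1. Gsta1, a glutathione transferase, was at 0.880 and 0.819 TPM in the EM organoids and 109.8 and 106 TPM in the co-cultured organoids (5.88 ± 0.43, adjusted p = 3.68e-05), and Gsta2, its close copy, may share its reads. Nqo1, a quinone reductase, was at 2.62 and 1.71 TPM in EM and 9.79 and 10.2 TPM in co-culture (1.81 ± 0.31, adjusted p = 0.00456), and Txnrd1, thioredoxin reductase, rose by 1.04 ± 0.10. Gpx2, the glutathione peroxidase of gut epithelium, fell, at 982 and 848 TPM in EM and 112 and 188 TPM in co-culture (-2.64 ± 0.39, adjusted p = 0.00207). Gstm1 fell by 1.18 ± 0.16 and Ephx1, an epoxide hydrolase, by 0.84 ± 0.12.

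Complement genes mostly fell. Of 11 complement genes 1 rose and 6 fell, with a median of -0.83. C3, the central component, was at 2914 and 3048 TPM in the EM organoids and 895 and 915 TPM in the co-cultured organoids (-1.72 ± 0.09, adjusted p = 5.80e-06). Cfi, the protease that inactivates it, was at 377 and 361 TPM in EM and 87.8 and 122 TPM in co-culture (-1.82 ± 0.25, adjusted p = 0.00133), and Serping1, the C1 inhibitor, at 84.5 and 64.8 TPM in EM and 11.9 and 22.8 TPM in co-culture (-2.10 ± 0.24, adjusted p = 0.000485). Cd55, which protects the cell surface, rose, at 2.98 and 0.807 TPM in EM and 25.6 and 21.4 TPM in co-culture (3.19 ± 0.38, adjusted p = 0.000664). C4b and C1ra were called as lower, with adjusted p of 0.00497 to 0.123 and 0.00835 to 0.172 without 1 organoid sample each.

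Of 22 acute phase genes and neutrophil chemokines, 5 rose and 1, C3, fell, and 3 rose without EM organoids 1. Il1a, the cytokine IL-1 alpha, had no read in the EM organoids and was at 74.8 and 87.7 TPM in the co-cultured organoids, at least 360.2-fold higher (adjusted p = 8.02e-06). Saa3, serum amyloid A3, was at 44.5 and 41.6 TPM in EM and 321 and 167 TPM in co-culture (2.40 ± 0.38, adjusted p = 0.00335), and Tnfaip3, an inhibitor of NF-kappaB, at 13.4 and 13.3 TPM in EM and 53.9 and 60.4 TPM in co-culture (2.02 ± 0.26, adjusted p = 0.00103). All 3 rose with no overlap. Lcn2, a siderophore-binding protein, was abundant in both cultures, at 17958 and 17680.3 TPM in EM and 16300.1 and 10825 TPM in co-culture (-0.42 ± 0.55, adjusted p = 0.736). Cxcl2 and Cxcl16 were called as higher, with adjusted p of 0.0304 to 0.176 and 0.0287 to 0.0592 without 1 organoid sample each.

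Genes by which epithelium holds and cuts matrix rose in part. Of 23 tested genes of this list, 8 rose and 1 fell, with a median of 0.59, and the rises numbered 5 without EM organoids 1, 4 without co-cultured organoids 1 and 5 without co-cultured organoids 2. Lama3, a chain of laminin 332, was at 0.444 and 0.903 TPM in the EM organoids and 50.4 and 35.8 TPM in the co-cultured organoids (4.71 ± 0.43, adjusted p = 0.000141). Serpinb5, which encodes maspin, was at 5.45 and 16.7 TPM in EM and 187 and 186 TPM in co-culture (4.13 ± 0.54, adjusted p = 0.00107). The integrin genes Itga6 and Itga2, whose products bind laminin and collagen, were at 6.32 and 9.73 TPM in EM and 62.2 and 65.5 TPM in co-culture (2.87 ± 0.50, adjusted p = 0.00494), and at 34.8 and 25.8 TPM in EM and 127 and 169.6 TPM in co-culture (2.25 ± 0.30, adjusted p = 0.00122). Timp3, a protease inhibitor, was the one fall, at 145 and 224 TPM in EM and 43.3 and 44.8 TPM in co-culture (-2.01 ± 0.19, adjusted p = 0.00016). Mmp7, an abundant epithelial protease, was at 2553 and 2085 TPM in EM and 5279.8 and 4730.3 TPM in co-culture (1.11 ± 0.92, adjusted p = 0.534), without overlap and without a call. The SE of Mmp7 comes from all 12 samples.

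Of 17 tested tight junction genes, Cldn1 rose, at 0.561 and 0 TPM in the EM organoids and 10.0 and 8.21 TPM in the co-cultured organoids (3.01 ± 0.39, adjusted p = 0.00107), and Cldn8 fell, at 147 and 212 TPM in EM and 52.2 and 44.6 TPM in co-culture (-1.85 ± 0.29, adjusted p = 0.00288). Cldn3 and Cldn4 were called as higher in the full fit but in none of the fits without 1 organoid sample. The list had 3 rises (17.6% against 5.73% of all genes), 1 fall (5.88% against 7.21%) and a median of 0.27. Of 21 stress genes 5 rose and 2 fell, with a median of 0.0016, and the chaperone genes Hspa5, Hspa8 and Hsp90aa1 were not called. Hspa1a, an inducible chaperone gene, was called as lower, with an adjusted p of 0.0942 to 0.176 without 1 organoid sample each. Atf3, a stress transcription factor, was at 4.62 and 3.42 TPM in EM and 28.3 and 29.3 TPM in co-culture (2.58 ± 0.30, adjusted p = 0.000574), and at 1779 and 1739 TPM in the DCs of day 0. Xbp1, a factor of secretory cells and the unfolded protein response, fell, at 2581 and 2588 TPM in EM and 798 and 810.3 TPM in co-culture (-1.68 ± 0.076, adjusted p = 2.30e-06), whereas its fellow stress genes Herpud1 and Trib3 rose by 0.85 ± 0.10 and 1.94 ± 0.28.

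Of 18 tested genes of duct secretion and transport, 1 rose (5.56% against 5.73% of all genes) and 1 fell (5.56% against 7.21%). The water channel gene Aqp1 fell, at 27.6 and 12.5 TPM in the EM organoids and 3.28 and 0.202 TPM in the co-cultured organoids (-3.12 ± 0.53, adjusted p = 0.00462), and Cftr, the chloride channel, was at 3.70 and 2.52 TPM in EM and 3.68 and 3.04 TPM in co-culture and was not called. The export pump gene Abcc3 was called as higher, with an adjusted p of 0.0633 to 0.145 without 1 organoid sample each. Of 18 hepatocyte genes, 3 rose (16.7% against 5.73% of all genes) and 1 fell. Serpina1c fell by 2.23 ± 0.38, and the urea cycle genes Ass1 and Arg1 rose, by 1.94 ± 0.20 and 2.56 ± 0.45, while Apob, which encodes an apolipoprotein, was called as higher with an adjusted p of 0.0639 to 0.0835 without 1 organoid sample each. Alb, which encodes albumin, was at 509 and 416 TPM in EM and 12.6 and 18.0 TPM in co-culture (-4.85 ± 1.94, adjusted p = 0.147) and was not called, without overlap between groups. The SE of Alb comes from all 12 samples. Among these, the SCA1+Msc cells 1 of the co-culture held 305 TPM of Alb, and the SCA1+Msc cells 2 at most 25.9 TPM. In the fit of the 6 ductal samples the hepatocyte list held 3 rises and 4 falls. The hepatocyte list summed to 1775 and 1678 TPM in the EM organoids and to 366 and 563 TPM in the co-cultured organoids.

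Of 13 tested oncofetal genes, 5 fell (38.5% against 7.21% of all genes) and 1 rose, and Gpc3 was the only one of these called in every fit without 1 organoid sample. The falls numbered 1 without EM organoids 1, 3 without EM organoids 2, 3 without co-cultured organoids 1 and 3 without co-cultured organoids 2. Afp, alpha-fetoprotein, was at 3.995 and 4.696 TPM in the EM organoids and 7.03 and 7.40 TPM in the co-cultured organoids (0.62 ± 0.82, adjusted p = 0.745), and H19 had no read. EM holds nicotinamide, and of 19 NAD genes 4 (21.1% against 5.73% of all genes) were called as higher in the full fit, Nampt, Nadk, Cd38 and Parp14, with 0 or 1 in each fit without 1 organoid sample. Nampt, the enzyme that salvages nicotinamide, was at 16.8 and 25.0 TPM in EM and 44.7 and 41.0 TPM in co-culture (1.03 ± 0.22, adjusted p = 0.0128), with an adjusted p of 0.0138 to 0.0907 over those fits.

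**Figure D5:**
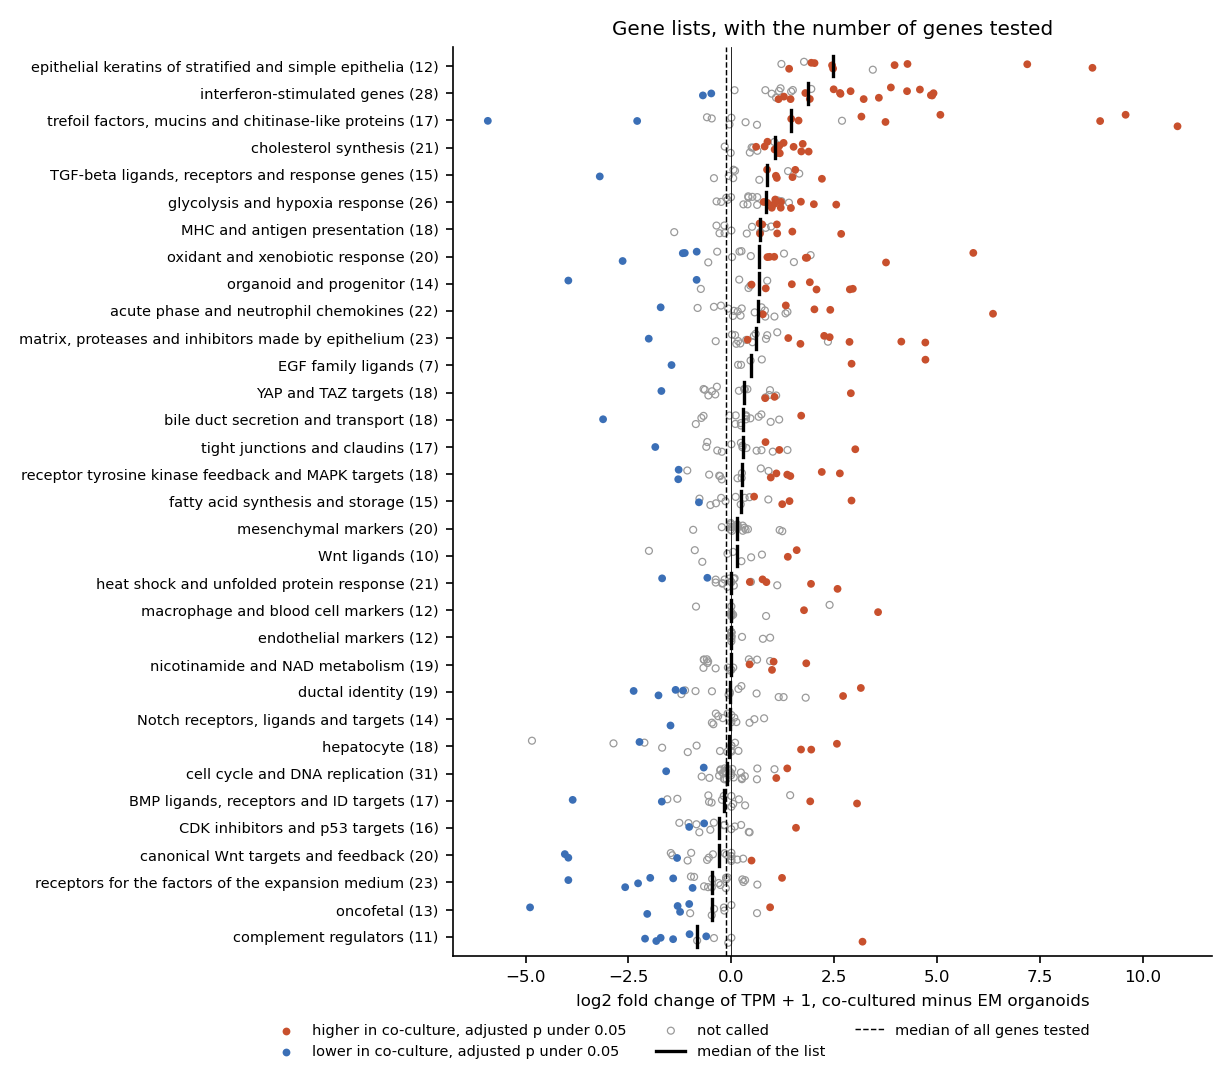
Log2 fold change, co-cultured minus EM organoids, of each tested gene in 33 gene lists, with the number tested in brackets, the median of each list as a bar and the median of all genes, -0.13, as a broken line. Keratins, interferon-stimulated genes and trefoil factors have the highest medians, at 2.46, 1.85 and 1.45, and complement genes the lowest, at -0.83.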

How the data were processed

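RNA-seq of the transwell experiment was analysed, which has 12 samples in 6 groups of 2, grouped by the culture their labels name. The authors deposited RPKM, made, per the labels and methods, from single-end Smart-seq2 reads aligned with STAR 2.5.0a to GRCm38 and counted on exons with featureCounts 1.6.0. Each sample was divided by its sum to give TPM. RPKM steps gave whole reads for 93.1% of 50158 low values (up to 20 reads, tolerance 0.02 of a read), with exon lengths of GENCODE M21, and thereby the library totals. Genes that reached a TPM of 1 in 2 or more of 12 samples were fitted as log2(TPM + 1) with limma 3.58.1 in R 4.3.3, with all 12 samples, a mean per group and a trended eBayes, in two-sided tests with Benjamini-Hochberg adjustment. On simulated data for this comparison with 18136 genes, the fit recovered 55.5% of 200 genes with a log2 change of 2. Of 122 calls there, 9.02% were false, which is above the threshold of 0.05. These figures may not carry over to the data, where 12.9% of the genes were called.

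Named were the 15 largest rises and falls among called genes without overlap, except predicted genes named Gm with a number or with names ending in Rik, and members of 34 lists with 607 genes. The members and lists were chosen with earlier results of these data known. Of 49568 rows, 26 symbols have become dates and were not named. Marker sums and floors were made with Python 3.11.15. Values of some single list members are not reported here, though list counts and medians include them.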

Additional observations from a re-analysis of the deposited data

How the results depend on the processing

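The 2348 calls became 997 when the 4 organoid samples were fitted alone, where 2 degrees of freedom remain, and 1231 to 2967 when 1 of the 12 samples was left out, with the lowest counts without an organoid sample. They numbered 1959 to 2688 under a pseudocount of 0.1, no filter, a TPM minimum of 5, quantile normalization, RPKM as deposited, scaling to a median change of 0, eBayes without trend, the 6 ductal samples, and a TPM minimum within the organoids, an alternative added after the data were seen. A log2 fold change of at least 1 held for 1594 calls, 797 in each direction. The replicate numbers did not pair the samples (correlation of the deviations of same-numbered EM and co-cultured samples 0.0154), and a replicate block gave 1988 calls. Over 163 genes named with a test, 139 of them called, 3583 of 3747 refits kept the direction and the side of the threshold, 124 lost a call, 60 of them in the fit of the 4 organoid samples, 40 gained one and none of a called gene turned direction. With 2 samples a group, small changes at low TPM were not detectable, and neither medium nor stroma was varied alone. A floor of 3 reads was used only for bounds where a value had no read, and lower counts were kept as measured.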

Other observations

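Further gene groups were chosen after their values were seen, so their counts are descriptions. Genes of intestinal epithelium and its brush border rose for the most part. Of 14 tested genes of a list of 19, 8 rose and 1 fell, with a median log2 fold change of 2.60, against -0.13 over all genes, and 7 rose in each fit without 1 organoid sample. Cdx2, the transcription factor of intestinal identity, had no read in the EM organoids and was at 3.21 and 4.87 TPM in the co-cultured organoids, at least 20.5-fold higher (adjusted p = 0.000588). Cdhr2 and Myo1a, a cadherin and a myosin of the microvilli, had no read in the EM organoids and were at 42.0 and 38.2 TPM and at 17.4 and 29.9 TPM in the co-cultured organoids (adjusted p = 0.000139 and 8.43e-05). Fcgbp, a protein of mucus, was at 4.79 and 5.79 TPM in EM and 138 and 117 TPM in co-culture (4.35 ± 0.27, adjusted p = 1.27e-05), whereas Muc2, the main mucin of the gut, stayed at up to 0.220 TPM and Cdx1 had no read.

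Of 7 galectin genes, 6 rose and none fell, and 3 rose without EM organoids 1. Lgals3 was at 184 and 119 TPM in the EM organoids and 2062 and 2065 TPM in the co-cultured organoids (3.79 ± 0.27, adjusted p = 2.87e-05). Of 11 S100 genes, 8 rose and none fell, led in level by S100a6, at 989 and 831 TPM in EM and 6813 and 6773 TPM in co-culture (2.90 ± 0.12, adjusted p = 1.24e-06). S100a8 and S100a9, which neutrophils express, were at 21.4 and 0.573 TPM and at 95.7 and 9.40 TPM in the co-cultured organoids and were not called. All 8 oligoadenylate synthetase genes tested rose, with a median of 3.76, and 5 of them without co-cultured organoids 1 or without co-cultured organoids 2.

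Genes of the cilium and axoneme, picked by name, fell in part. They include genes of intraflagellar transport, which primary cilia use as well, and Dnah2os, whose reads cannot be told from those of Dnah2 without strand. Of 55 genes, 21 fell and 1 rose, with a median of -0.99, and the falls numbered 11 without EM organoids 1, 12 without EM organoids 2 and 11 without co-cultured organoids 1. Tekt4, a tektin of the axoneme, was at 5.31 and 9.10 TPM in the EM organoids and had no read in the co-cultured organoids (adjusted p = 0.000221). Rsph4a, a radial spoke protein, was at 12.8 and 9.22 TPM in EM and 1.84 and 0.109 TPM in co-culture (-2.74 ± 0.43, adjusted p = 0.00313), and Ift57, of intraflagellar transport, at 111 and 107 TPM in EM and 40.9 and 49.5 TPM in co-culture (-1.26 ± 0.15, adjusted p = 0.000755). Tekt5, the one rise, was at 0.931 and 0.260 TPM in EM and 14.3 and 8.29 TPM in co-culture (2.93 ± 0.34, adjusted p = 0.000517).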
